A study of Homo sapiens with 12 samples.

Results

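The mitochondrially encoded genes were taken as every gene symbol in the deposited count tables that starts with "MT-", which gave 37 of 55765 genes. They are the whole gene content of the human mitochondrial genome: 13 protein-coding genes, 2 ribosomal RNA (rRNA) genes and 22 transfer RNA (tRNA) genes. RNA of T47D cells, an established luminal breast cancer line that carries the estrogen and progesterone receptors, had been sequenced in 12 libraries. The 4 groups of 3 biological replicates were cells with a control siRNA (siCT) and cells with an siRNA against the arginine methyltransferase PRMT1 (siPRMT1), each exposed for 6 h to R5020, a synthetic progestin, at 10 nM or to ethanol as the vehicle. The sample titles call the ethanol groups T0 and the R5020 groups T6H. All groups were grown in serum-containing RPMI medium with insulin, and all cells were transfected with an siRNA. The siRNA lowers PRMT1 messenger RNA without deleting the gene, and a single cell line was used. The study asked whether PRMT1 is needed for the progestin response.

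The mitochondrial genome is a small circle that is transcribed from both strands into long precursor RNAs. Most of the rRNA and mRNA pieces in these precursors are bordered by tRNAs, and cutting out the tRNAs releases the pieces in between. The mRNAs encode subunits of complex I, complex III, complex IV and ATP synthase, the machines of oxidative phosphorylation, and most of them carry a short poly(A) tail added inside the organelle. Since heavy-strand genes share precursors, differences among their mature levels are thought to arise largely in processing and stability.

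Not every junction holds a tRNA. MT-ATP8 and MT-ATP6, which encode ATP synthase subunits, overlap by 46 bases and are carried on one mRNA, and MT-ND4L and MT-ND4, which encode complex I subunits, overlap by 7 bases. These stretches are shown because a read that falls in them lies in both genes, and how such reads were counted is not given in the sources used here. The lines give the last 80 bases of MT-ATP8 and the first 80 of MT-ATP6, then the last 40 of MT-ND4L and the first 40 of MT-ND4, 5′ to 3′ as DNA from GENCODE 29 (GRCh38), with the shared bases in capitals. The overlap takes up 22.22% of the 207 bases of MT-ATP8 and 6.76% of the 681 bases of MT-ATP6.
MT-ATP8: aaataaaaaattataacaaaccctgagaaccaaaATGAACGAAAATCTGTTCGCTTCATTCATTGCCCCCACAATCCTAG
MT-ATP6: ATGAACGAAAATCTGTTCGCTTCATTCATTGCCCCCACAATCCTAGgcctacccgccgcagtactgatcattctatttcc
MT-ND4L: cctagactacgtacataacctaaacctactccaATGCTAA
MT-ND4: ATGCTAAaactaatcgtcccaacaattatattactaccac

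Each library held 26783525 to 34120937 counts. PRMT1 counts were 543 to 1839 in the siCT libraries and 189 to 315 in the siPRMT1 libraries, 4.56-fold lower in ethanol and 6.07-fold lower in R5020 (edgeR's quasi-likelihood test, adjusted p = 7.79e-06 and 2.96e-06). All 9 luminal markers examined, among them ESR1, PGR, KRT8 and GATA3, had counts in every library. Of 10 markers of immune, stromal, endothelial and basal cells, 8 had at most 46 counts in any library, while COL1A1 and ACTA2 were present in all of them at 44.8 to 127 and 10.7 to 93.6 counts-per-million (CPM) of the counts outside the MT- genes. On that scale the 10 markers summed to 118.8 to 195.9 in the siCT and 59.01 to 71.0 in the siPRMT1 libraries. COL1A1 and ACTA2 gave most of these sums. KRT5 rose with siPRMT1 in R5020 (log2 fold change 3.58, edgeR adjusted p = 0.00119). The 9 luminal markers summed to 12380 to 17750 and 10170 to 12130 in siCT, and 26220 to 27100 and 18040 to 19330 in siPRMT1 (ethanol and R5020). With siPRMT1 4 of the 9 rose in ethanol, and 4 rose and 2 fell in R5020. Of all genes 13.6% rose and 19.2% fell, then 11.5% and 14.2%. The part of these shifts in the results on MT- genes was not tested. Libraries siCT ethanol replicate 3 and siCT R5020 replicate 1 stood apart from the other libraries of their groups, and results are given with and without this pair. No set rule picked the pair, which stands out in the MT- share itself. P-values without it therefore follow a choice made on the outcome. Leaving it out takes 1 of the 3 libraries from each siCT group.

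The MT- genes made up 31.3% to 38.3% of the counts in 10 libraries and over 50% in the pair. Their share of all counts in the siCT ethanol libraries was 32.2%, 33.1% and 59.3%. In siCT R5020 libraries it was 52.4%, 32.6% and 31.3%. In siPRMT1 ethanol libraries it was 33.8%, 33.7% and 32.5%, and in siPRMT1 R5020 libraries 38.3%, 33.1% and 35.3%. The 3 siPRMT1 ethanol libraries thus lay close together, and both siCT groups were spread by 1 high library each. The group means were 41.5% ± 15.4 and 38.7% ± 11.8 for siCT in ethanol and R5020, and 33.3% ± 0.751 and 35.6% ± 2.58 for siPRMT1 (SD, n = 3 each). The mean difference between siPRMT1 and siCT was -8.21 percentage points in ethanol and -3.17 in R5020, less than the SD of the siCT groups, and without the pair it was 0.679 and 3.63 points. The sign of the difference thus turned on these 2 libraries. In bulk RNA, fewer cells of a type and less RNA per cell cannot be told apart, and the same holds for fewer mitochondria and less RNA in each.

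**Figure D1:**
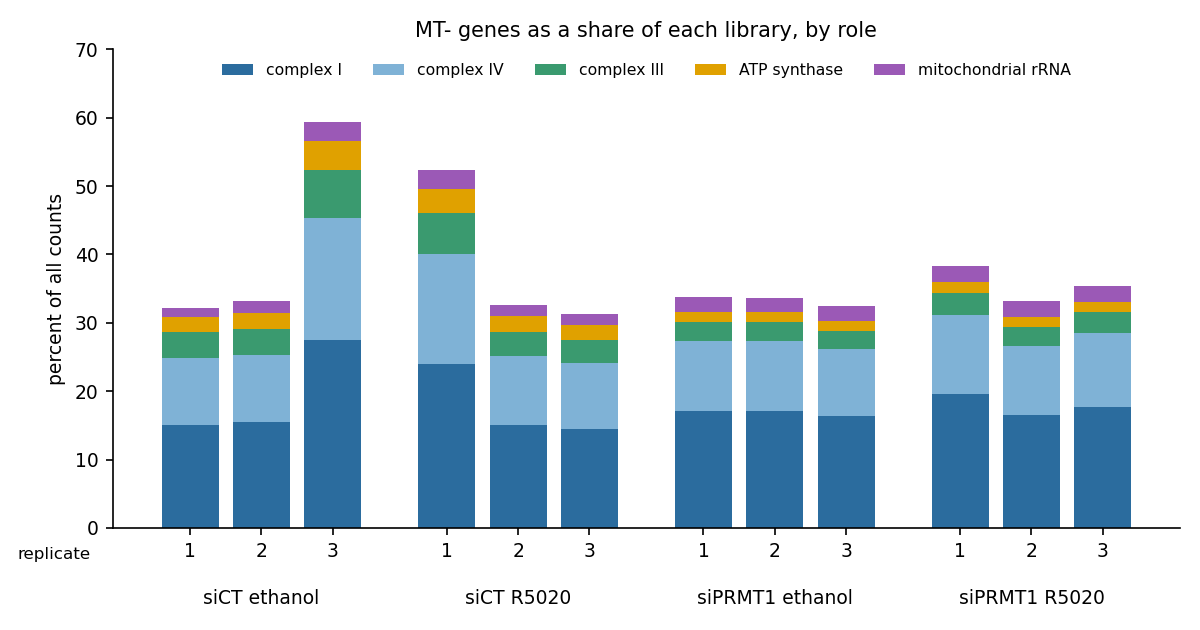
Share of all counts (percent) held by the MT- genes in each of the 12 libraries, stacked by the complex or RNA class their products belong to; the numbers 1 to 3 are replicates. The bars reach 59.3% and 52.4% in siCT ethanol replicate 3 and siCT R5020 replicate 1 and 31.3% to 38.3% in the other libraries.

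In the pair, the heavy-strand mRNAs and rRNAs were raised nearly alike. These 14 members, all protein-coding and rRNA genes but MT-ND6, held at least 99.96% of MT- counts in each library. In siCT ethanol replicate 3 their shares of the library were 1.71 to 1.94 times the mean of the other 2 libraries of the group, with a median of 1.79. In siCT R5020 replicate 1 the ratio was 1.48 to 1.86, with a median of 1.63. Within the MT- counts the same members therefore differed little, by factors of 0.944 to 1.07 and 0.904 to 1.13. MT-ND6, the single mRNA read from the light strand, had ratios to the library of 1.43 and 1.14 on 50 and 41 counts, and the light-strand tRNA gene MT-TQ 0.963 and 1.08 on 48 and 56 counts. The nuclear noncoding RNAs MALAT1 and NEAT1 were high in the same pair: MALAT1 had 2443 and 1486 CPM of the counts outside the MT- genes, against 395 to 812 in the other 10 libraries, and NEAT1 had 2062 and 1881 against 520 to 816. Their part in the MT- levels was not tested.

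Scaled by gene length, the heavy-strand mRNAs fell into 3 tiers. Each member's counts per kilobase were expressed as a percentage of the summed counts per kilobase of the 13 mRNAs. MT-ND4L led with a median over the 12 libraries of 21.1%, followed by MT-ND4 with 18.4% and MT-CO2, a complex IV subunit, with 13.8%. The first pair sit on one mRNA. Their ranges of 18.4% to 23.5% and 16.5% to 20.6% overlapped over the libraries, although MT-ND4L was the higher of the pair in each library. MT-CO1 (8.02%), MT-CYB (7.54%), MT-CO3 (6.70%), MT-ATP6 (5.91%), MT-ND3 (5.65%) and MT-ATP8 (4.91%) formed a middle tier. MT-CYB led this tier in each siCT library and MT-CO1 in each siPRMT1 library. MT-ND5 (2.78%), MT-ND2 (2.54%) and MT-ND1 (2.31%) were lowest among the heavy-strand mRNAs. The rRNAs stood at 2.51% (MT-RNR2, the large subunit) and 1.21% (MT-RNR1, the small subunit) on this scale. MT-ND6, which is known to lack a poly(A) tail, had a median of 0.00061%, with 28 to 50 counts per library.

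The composition of the MT- counts separated the siPRMT1 from the siCT libraries, and the pair did not break that separation. Shares of the MT- counts add up to 100%, so a fall in some members raises the shares of the others. Of the 14 heavy-strand mRNAs and rRNAs, 6 had lower shares in all 6 siPRMT1 libraries than in any of the 6 siCT libraries, 6 had higher shares, and MT-CO2 and MT-ND1 overlapped. Over all 25 members that passed the filter on low counts, 9 were lower and 7 higher without overlap, beside 3.19% and 4.25% (7.45% in all) of the 17727 genes tested on the same scale. Dividing by the MT- counts largely cancels the high MT- share of the pair for members but brings it into all other genes. These shares of all genes are therefore no like measure for the members. MT-ATP8, MT-ATP6, MT-CO3 and MT-ND3, 4 of the 6 lower members, follow each other along the genome, with the tRNA gene MT-TG between MT-CO3 and MT-ND3. The other lower members, MT-ND2 and MT-CYB, lie apart from them.

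**Figure D2:**
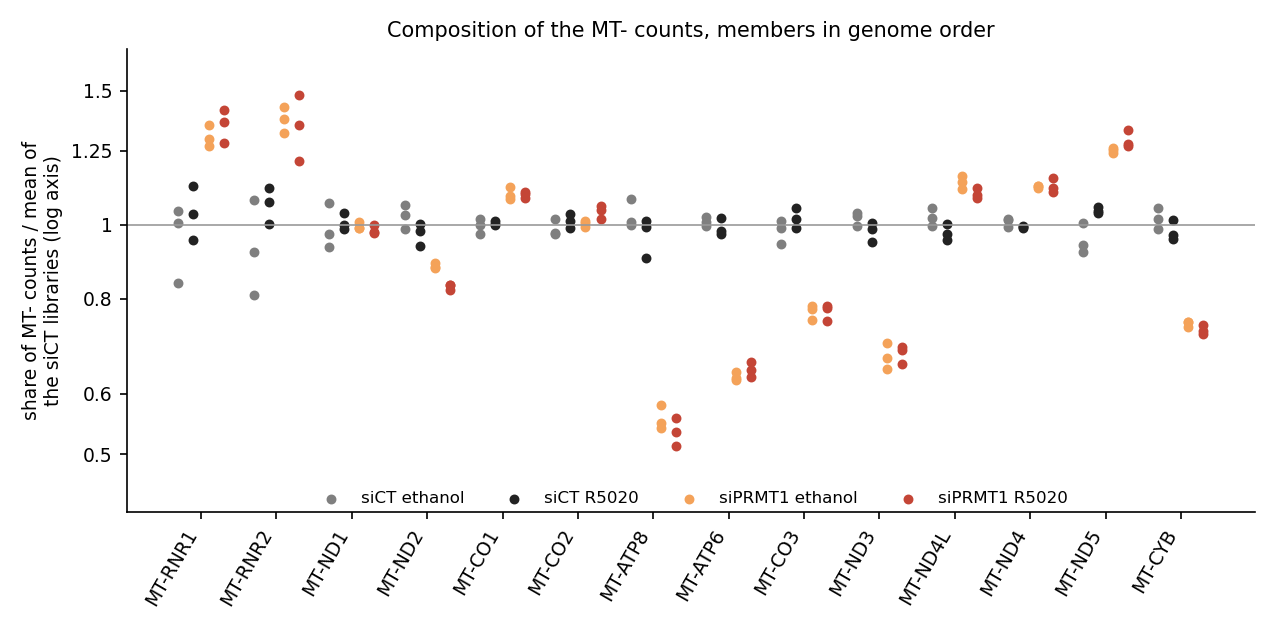
Each member's share of MT- counts in each library, divided by its mean over the 6 siCT libraries (log axis), for the 14 heavy-strand mRNAs and rRNAs in their order along the mitochondrial genome; a point is a library. The siPRMT1 points of MT-ND2, MT-ATP8, MT-ATP6, MT-CO3, MT-ND3 and MT-CYB lie below all siCT points, those of MT-RNR1, MT-RNR2, MT-CO1, MT-ND4L, MT-ND4 and MT-ND5 above.

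ATP synthase mRNAs showed the largest differences among the 14. MT-ATP6, which encodes the a subunit of the proton channel, took 5.66%, 5.50% and 5.56% of MT- counts in siCT ethanol, 5.41%, 5.63% and 5.36% in siCT R5020, 3.48%, 3.45% and 3.54% in siPRMT1 ethanol and 3.65%, 3.49% and 3.56% in siPRMT1 R5020. The 2 siRNA groups were separated by a wide gap, and the treatments were not. When all genes were tested relative to the summed MT- counts, MT-ATP6 was 1.597-fold lower in siPRMT1 cells given ethanol (-0.68 ± 0.12 on the log2 scale, with its SE, edgeR quasi-likelihood adjusted p = 0.00872) and 1.53-fold lower in R5020 (-0.62 ± 0.12, edgeR adjusted p = 0.0186). MT-ATP8, which encodes a small membrane subunit, took 1.52%, 1.65% and 1.54% in siCT ethanol, 1.38%, 1.54% and 1.51% in siCT R5020, 0.824%, 0.834% and 0.883% in siPRMT1 ethanol and 0.812%, 0.849% and 0.779% in siPRMT1 R5020. It was 1.85-fold lower in ethanol (-0.89 ± 0.17, edgeR adjusted p = 0.0147) and 1.81-fold lower in R5020 (-0.86 ± 0.17, edgeR adjusted p = 0.0224). There were 25.5 to 29.9 MT-ATP8 counts per 100 counts of MT-ATP6, its partner on the same mRNA, in siCT and 21.9 to 25.0 in siPRMT1 libraries, a difference that was not tested. A ratio between 2 members does not depend on the MT- total, and MT-ATP6 per 100 MT-CO2 counts went from 54.3 ± 0.758 to 33.5 ± 0.731 in ethanol and from 52.1 ± 0.834 to 33.0 ± 1.31 in R5020 (SD, n = 3 each).

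With all 12 libraries, the members called in this relative fit were all lower with siPRMT1. In ethanol 4 of the 25 members fell and none rose, where 1.04% of all genes were called lower and 1.19% higher (2.23% in all). In R5020 3 fell and none rose, where 1.10% and 0.592% of all genes were called (1.69% in all). The spread of the MT- total between libraries enters all other genes in this fit but largely cancels for members. The shares of all genes are thus no like measure for the members here. The comparisons in ethanol and in R5020 share no library, but they come from the same fit with a shared spread. In both, 13 of the 14 heavy-strand mRNAs and rRNAs had the same sign, MT-ND1 being the exception with values near 0. Over all 25 members tested, 21 had the same sign in both. The share of all genes with the same sign in both is not given here. In edgeR's test the interaction of siRNA and treatment on this scale called no gene of the 17727, and no member had an unadjusted p under 0.05. Each comparison rested on 3 libraries a side: leaving out any 1 siPRMT1 ethanol library ended all 4 calls in ethanol (MT-ATP6, edgeR adjusted p = 0.0671 to 0.0742), and leaving out siCT R5020 replicate 2 or siPRMT1 R5020 replicate 3 left 2. In R5020 all 3 calls ended without any 1 siPRMT1 R5020 library, siCT R5020 replicate 2, siCT R5020 replicate 3 or siPRMT1 ethanol replicate 2, 1 call was left without siPRMT1 ethanol replicate 1 or 3, and 8 members were called without siCT ethanol replicate 3. The log2 fold changes of MT-ATP6 stayed between -0.69 and -0.60 throughout. Without the pair 8 members were called lower and 5 higher in ethanol, where 25.6% and 13.3% of all genes were called, and 11 and 5 in R5020, where 33.0% and 6.23% were called.

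Complex III has a single mitochondrial gene, MT-CYB, which encodes cytochrome b. It took 11.5%, 11.2% and 11.9% of MT- counts in siCT ethanol and 11.5%, 10.96% and 10.8% in siCT R5020. In siPRMT1 it took 8.43%, 8.41% and 8.31% in ethanol and 8.19%, 8.13% and 8.36% in R5020, below all siCT values. The fall was 1.37-fold in ethanol (-0.46 ± 0.10, edgeR adjusted p = 0.0236) and 1.35-fold in R5020 (-0.43 ± 0.10, edgeR adjusted p = 0.0370).

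The 3 complex IV mRNAs did not move together. MT-CO3 took 6.44% to 7.18% of MT- counts in the siCT and 5.12% to 5.35% in the siPRMT1 libraries, without overlap. Its log2 fold changes of -0.35 ± 0.11 and -0.40 ± 0.11 had edgeR adjusted p = 0.136 and 0.0856, and without the pair they were -0.35 and -0.38 with edgeR adjusted p = 0.00067 and 0.00023. MT-CO1, which encodes the catalytic subunit, took 12.8% to 13.4% and 14.3% to 14.8%, with log2 fold changes of 0.14 ± 0.09 and 0.13 ± 0.09 (edgeR adjusted p = 0.485 and 0.679). MT-CO2 took 10.1% to 10.7% and 10.3% to 10.97%. The sum of the 3 genes was level across the groups, at 30.1% ± 0.266 and 30.7% ± 0.0936 in siCT and 30.2% ± 0.193 and 30.5% ± 0.324 in siPRMT1 (ethanol and R5020, SD, n = 3 each).

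The complex I mRNAs did not move together either. MT-ND3, the next mRNA after MT-CO3, took 2.63%, 2.71% and 2.74% of MT- counts in siCT ethanol, 2.51%, 2.61% and 2.66% in siCT R5020, 1.85%, 1.77% and 1.71% in siPRMT1 ethanol and 1.81%, 1.83% and 1.74% in siPRMT1 R5020. It fell 1.52-fold in ethanol (-0.60 ± 0.15, edgeR adjusted p = 0.0442), and the value in R5020 was -0.53 ± 0.15 (edgeR adjusted p = 0.0822). MT-ND2 took 3.01% to 3.41% in siCT and 2.63% to 2.86% in siPRMT1 libraries. MT-ND4, the most abundant member, took 26.4% to 27.1% and 29.4% to 30.7%, and MT-ND4L 6.26% to 6.90% and 7.11% to 7.60%. MT-ND4L per 100 MT-ND4 counts, 23.6 to 26.1 and 23.4 to 25.5, overlapped between the siRNA groups. MT-ND5 took 4.51% to 5.17% and 6.09% to 6.52%, with log2 fold changes of 0.39 ± 0.11 and 0.31 ± 0.11 (edgeR adjusted p = 0.1002 and 0.243). MT-CYB is the next heavy-strand mRNA after MT-ND5. Their ratio separated the siRNA groups: there were 210 to 264 MT-CYB counts per 100 MT-ND5 counts in siCT and 125 to 138 in siPRMT1 libraries.

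**Figure D3:**
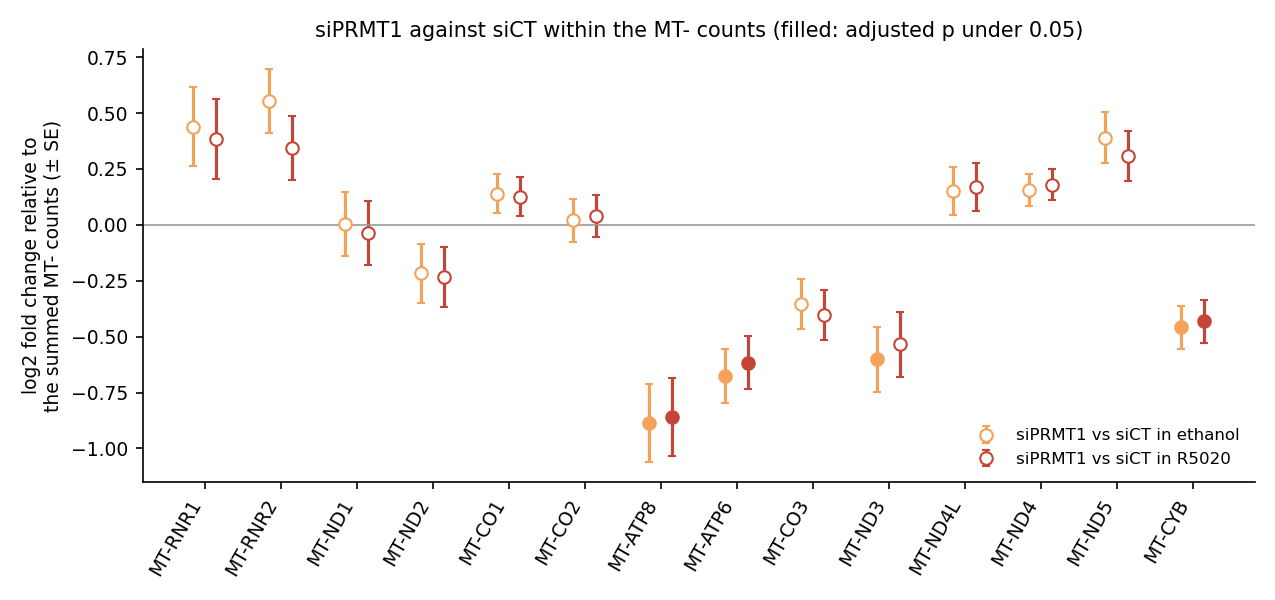
Log2 fold change of each heavy-strand mRNA and rRNA with siPRMT1 against siCT, relative to the summed MT- counts, with its standard error, in ethanol and in R5020; filled points have an adjusted p under 0.05. MT-ATP8 (-0.89 and -0.86), MT-ATP6 (-0.68 and -0.62) and MT-CYB (-0.46 and -0.43) are filled in both, MT-ND3 (-0.60) in ethanol.

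The mitochondrial rRNAs had higher shares with siPRMT1. MT-RNR2 took 3.02%, 4.03% and 3.44% of MT- counts in siCT ethanol, 3.99%, 3.74% and 4.17% in siCT R5020, 5.14%, 4.92% and 5.32% in siPRMT1 ethanol and 4.52%, 5.53% and 5.04% in siPRMT1 R5020. All siPRMT1 values were above all siCT values, and the siCT ethanol libraries were the most spread. The log2 fold changes of 0.55 ± 0.14 and 0.34 ± 0.14 had edgeR adjusted p = 0.0589 and 0.330, and relative to the protein-coding MT- counts alone the value in ethanol was 0.58 (edgeR adjusted p = 0.0499). MT-RNR1 took 0.897% to 1.204% in siCT and 1.36% to 1.51% in siPRMT1 libraries. There were 4.74 ± 0.674 and 5.35 ± 0.306 rRNA counts per 100 mRNA counts in siCT and 6.98 ± 0.251 and 6.93 ± 0.657 in siPRMT1 (ethanol and R5020, SD, n = 3 each). How far the library kit, made for mRNA, captured these RNAs is not given in the sources used here.

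The tRNA members gave few counts. Of the 22 tRNA genes, 5 (MT-TG, MT-TK, MT-TN, MT-TR and MT-TS2) had no count in any library and 18 had fewer than 100 in every library, and all of them together had 39888 counts over the 12 libraries. The light-strand members, MT-ND6 and 8 tRNAs, had 1221 counts in all. Of the 10 tRNA members that passed the filter on low counts, 3 were lower in all siPRMT1 than in all siCT libraries relative to the MT- counts (MT-TF, MT-TI and MT-TM), 1 was higher (MT-TT) and 6 overlapped, beside 3.19% of all genes lower and 4.25% higher without overlap. As above, these shares of all genes are no like measure for the members. MT-TF, MT-TI, MT-TM and MT-TT, which serve phenylalanine, isoleucine, methionine and threonine, are shown whole because the results on tRNAs turn on them, 5′ to 3′ as DNA from GENCODE 29 (GRCh38), with the anticodon in capitals. A count may come from a longer precursor that spans the gene or from the tRNA itself.
MT-TF: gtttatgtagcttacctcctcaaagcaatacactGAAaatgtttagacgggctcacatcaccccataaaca
MT-TI: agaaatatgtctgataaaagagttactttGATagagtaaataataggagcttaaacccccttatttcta
MT-TM: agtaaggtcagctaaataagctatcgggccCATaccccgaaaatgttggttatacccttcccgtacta
MT-TT: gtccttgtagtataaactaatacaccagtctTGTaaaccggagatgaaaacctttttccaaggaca

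MT-TF had 2.04, 3.57 and 4.16 CPM of MT- counts in siCT ethanol, 5.30, 4.14 and 3.46 in siCT R5020, 1.699, 1.84 and 1.80 in siPRMT1 ethanol and 1.76, 1.92 and 0.888 in siPRMT1 R5020, on 10 to 92 counts. All siPRMT1 libraries lay below all siCT libraries, by a small margin at siCT ethanol replicate 1. Relative to the MT- total its log2 fold changes were -0.88 ± 0.40 in ethanol (edgeR adjusted p = 0.336) and -1.50 ± 0.41 in R5020 (edgeR adjusted p = 0.0784), and without the pair the value in R5020 was -1.33 (edgeR adjusted p = 0.00211). After TMM scaling over all genes they were -1.64 ± 0.66 and -1.83 ± 0.66 (edgeR adjusted p = 0.0737 and 0.0581), and without the pair -0.57 and -1.05 (edgeR adjusted p = 0.193 and 0.0273).

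MT-TI had 46.8, 55.3 and 43.4 CPM of MT- counts in siCT ethanol, 51.8, 58.5 and 58.9 in siCT R5020, 35.7, 32.6 and 42.3 in siPRMT1 ethanol and 22.7, 27.4 and 25.3 in siPRMT1 R5020. The siPRMT1 R5020 libraries were lowest of all. Relative to the MT- total its log2 fold changes were -0.40 ± 0.34 in ethanol (edgeR adjusted p = 0.611) and -1.17 ± 0.34 in R5020 (edgeR adjusted p = 0.104). MT-TM had 6.11 to 9.09 in siCT and 2.96 to 5.11 in siPRMT1 libraries, on 37 to 153 counts. MT-TT, the most counted tRNA, had 71.9, 137 and 102 in siCT ethanol, 184, 125 and 166 in siCT R5020, 264, 241 and 281 in siPRMT1 ethanol and 198, 226 and 219 in siPRMT1 R5020. Its log2 fold change was 1.34 ± 0.37 in ethanol (edgeR adjusted p = 0.0807) and 0.43 ± 0.37 in R5020 (edgeR adjusted p = 0.763). MT-TT follows MT-CYB on the genome, and its counts per 100 MT-CYB counts were 0.0625 to 0.161 in siCT and 0.242 to 0.339 in siPRMT1 libraries. The 6 tRNA members that overlapped were not called on this scale with either treatment. MT-TL1, the most counted of them, had 30.4 to 39.6 CPM of MT- counts in siCT and 30.7 to 42.99 in siPRMT1 libraries. MT-TD had 4.95 to 8.77 and 2.80 to 7.60, MT-TQ 2.90 to 6.88 and 0.641 to 4.83, and MT-TW 1.27 to 2.82 and 1.87 to 4.45. MT-TA and MT-TV had at most 14 counts in any library.

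**Figure D4:**
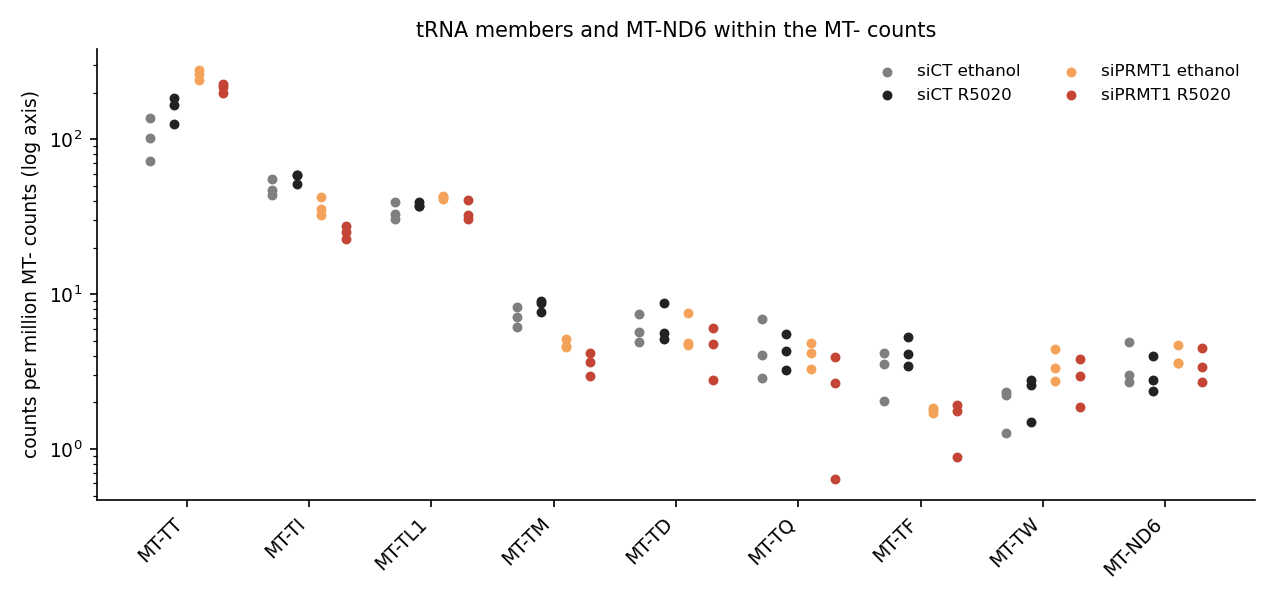
CPM of MT- counts (log axis) of the 8 most counted tRNA members and of MT-ND6; a point is a library. MT-TI and MT-TM lie lower and MT-TT higher in the siPRMT1 libraries, while MT-ND6 overlaps between all groups at 2.36 to 4.89.

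Relative to all genes, after TMM scaling, the picture depended on the pair. In ethanol 4 of the 25 members fell with siPRMT1 and none rose, where 19.2% of all genes were called lower and 13.6% higher (32.8% in all). MT-ATP6 had 15901, 15910 and 50414 CPM (after TMM scaling, of all counts) in siCT ethanol and 10612, 10495 and 10178 in siPRMT1 ethanol. The siCT value of replicate 3 was far above the other 2, and the groups did not overlap. MT-ATP6 fell by 1.39 ± 0.47 on the log2 scale (edgeR adjusted p = 0.0388), MT-ATP8 by 1.60 ± 0.43 (edgeR adjusted p = 0.0141), MT-ND3 by 1.33 ± 0.46 (edgeR adjusted p = 0.0410) and MT-TI by 1.04 ± 0.37 (edgeR adjusted p = 0.0444). Without siCT ethanol replicate 3, MT-ATP8 alone of these 4 passed, and the change of MT-ATP6 was -0.55 (edgeR adjusted p = 0.195). Leaving out siPRMT1 ethanol replicate 1 or 3 ended all 4 calls, leaving out siPRMT1 ethanol replicate 2 or any 1 siPRMT1 R5020 library left 1, and without siCT R5020 replicate 1 the number was 7.

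MT-ATP8 had 4279, 4760 and 13918 CPM in siCT ethanol and 2516, 2536 and 2540 in siPRMT1 ethanol. MT-ND3 had 7407, 7848 and 24800 CPM against 5640, 5377 and 4910, and MT-TI 13.2, 15.99 and 39.4 CPM against 10.9, 9.90 and 12.2. In each of these the highest siPRMT1 value stayed below the lowest siCT value, by a small margin for MT-TI.

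In R5020 2 of the 25 members fell and none rose, where 14.2% of all genes were called lower and 11.5% higher (25.7% in all). Both were tRNAs: MT-TI had 36.3, 17.9 and 16.99 CPM in siCT R5020 and 9.14, 8.86 and 8.98 in siPRMT1 R5020, and MT-TM had 6.18, 2.78 and 2.22 against 1.20, 1.35 and 1.29. The groups did not overlap for either, and replicate 1 was the highest siCT library for both. MT-TI fell by 1.40 ± 0.37 on the log2 scale (edgeR adjusted p = 0.0163) and MT-TM by 1.53 ± 0.47 (edgeR adjusted p = 0.0301). Without siCT R5020 replicate 1 the values were -0.96 (edgeR adjusted p = 0.0695) and -0.97 (edgeR adjusted p = 0.137), and leaving out any 1 siPRMT1 R5020 library ended both calls too. Without siCT ethanol replicate 3 the number of members called lower was 7.

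Without the pair, members were called in both directions after TMM scaling, mostly at rates near those of all genes. In ethanol 7 of 25 were called lower and 4 higher, where 24.3% and 20.2% of all genes were. MT-ATP8 (-0.83), MT-ATP6 (-0.60), MT-ND3 (-0.51), MT-CYB (-0.36) and MT-CO3 (-0.27) were lower with the tRNAs MT-TI and MT-TM, and MT-RNR2 (0.62), MT-RNR1 (0.55), MT-ND5 (0.44) and MT-TT (1.39) were higher. In R5020 6 were called lower and 8 higher, where 19.6% and 19.3% of all genes were. The values of MT-CO1, MT-CO2, MT-ND1, MT-ND4, MT-ND4L and both rRNAs in ethanol were thus below 0 with the pair and above 0 without it, and MT-ND5 likewise. 

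**Figure D5:**
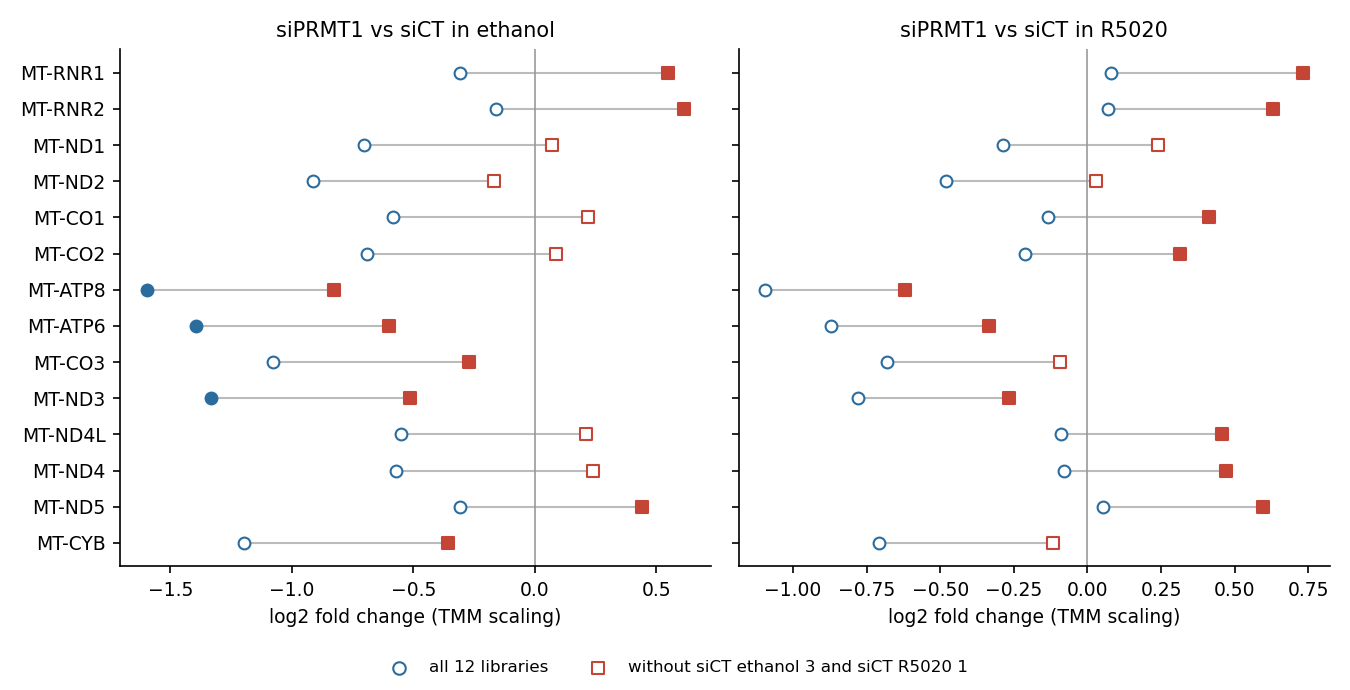
Log2 fold change with siPRMT1 against siCT after TMM scaling over all genes, for the 14 heavy-strand mRNAs and rRNAs, with all 12 libraries (circles) and without siCT ethanol replicate 3 and siCT R5020 replicate 1 (squares); filled symbols have an adjusted p under 0.05. All members shift to the right without the pair, while their order stays similar: MT-ATP8 is lowest in both settings, at -1.60 and -0.83 in ethanol.

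MT-ATP6 has a near-identical copy in the nuclear genome, MTATP6P1, which held 99.2% of the counts of the 188 nuclear copies named in the files, of which 150 had no count. The pair of sequences differ at 10 of 681 bases (98.53% identity) and the longest stretch without a difference is 141 bases, so that many reads cannot be told apart. The stretch from base 81 to base 200 of each, counted from 1 at the start of the gene, is shown because it holds 4 of the differences, with the differing bases in capitals (C129T, A151C, A175G and A192G, the MT-ATP6 base first; GENCODE 29, GRCh38).
MT-ATP6: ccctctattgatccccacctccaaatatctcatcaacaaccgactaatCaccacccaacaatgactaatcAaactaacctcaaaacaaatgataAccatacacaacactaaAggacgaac
MTATP6P1: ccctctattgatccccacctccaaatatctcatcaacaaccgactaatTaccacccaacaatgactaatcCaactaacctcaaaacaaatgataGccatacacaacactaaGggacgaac
MTATP6P1 fell with siPRMT1 in ethanol as MT-ATP6 did (-1.25 ± 0.40, edgeR adjusted p = 0.0293, TMM scaling), and without the pair the value was -0.56 (edgeR adjusted p = 0.000415). MTATP8P1, a copy of MT-ATP8 with 1373 counts over the 12 libraries, fell by 1.96 ± 0.48 on the log2 scale in ethanol and by 1.73 ± 0.49 in R5020 (edgeR adjusted p = 0.00896 and 0.0206), and without the pair the values were -1.26 and -1.04 (edgeR adjusted p = 0.000479 and 0.00226). MTND2P28, MTND4P12 and MTND1P23, the other copies among the 5 most counted, were not called in either comparison with all libraries. Of 7 copies tested without the pair, 2 fell in ethanol, and 2 rose and 2 fell in R5020, where 20.2% of all genes were called higher and 24.3% lower in ethanol and 19.3% and 19.6% in R5020. MTATP6P1 had 16.6 to 20.3 counts per 100 MT-ATP6 counts in all 12 libraries, with group means of 18.0 ± 1.27 and 18.8 ± 1.53 in siCT and 19.2 ± 0.902 and 18.6 ± 0.827 in siPRMT1 (ethanol and R5020, SD, n = 3 each). Counting both as 1 gene, an alternative added after seeing these counts, left the relative log2 fold changes at -0.66 in ethanol and -0.61 in R5020 (edgeR adjusted p = 0.0085 and 0.0163).

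R5020 changed no member past the threshold in either siRNA group, where 7.59% of all genes rose and 5.43% fell in siCT (13.0% in all) and 9.30% rose and 6.08% fell in siPRMT1 (15.4% in all). In siCT the log2 fold changes of the 14 heavy-strand mRNAs and rRNAs were -0.29 to 0.01, each with an SE of 0.42 to 0.53, and no member had an unadjusted p under 0.05. In siPRMT1 all 14 were above 0, from 0.18 to 0.32, with SEs of 0.42 to 0.53. For 13 of them the siPRMT1 R5020 libraries lay above all siPRMT1 ethanol libraries in CPM after TMM scaling, as 27.6% of all genes did. MT-CO2, for example, had 32001, 31731 and 29602 CPM in siPRMT1 ethanol and 42608, 35069 and 38903 in siPRMT1 R5020, a log2 fold change of 0.32 ± 0.48. These differences depended on the scaling. The median log2 fold change of the 14 was 0.27 with TMM scaling and 0.09 with library totals alone. As shares of the library, MT-ND4 overlapped, at 9.74% to 10.1% in siPRMT1 ethanol and 9.75% to 11.7% in siPRMT1 R5020, while MT-CO2 did not. The fit with TMM scaling takes its spread from all groups, the pair included. Fitted on the siPRMT1 groups alone, 13 members were called higher and 1 lower, where 23.9% and 22.7% of all genes were, and without the pair 9 were called higher and none lower, where 15.8% and 13.3% of all genes were.

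Within the MT- counts R5020 moved the 14 members by -0.09 to 0.18 in siCT and by -0.09 to 0.05 in siPRMT1 on the log2 scale, and no member was called, where in siCT 1.58% of all genes rose and 0.423% fell (2.00% in all) and in siPRMT1 1.55% and 1.21% (2.76% in all). No member had an unadjusted p under 0.05 there either. MT-ND2 took 2.82%, 2.82% and 2.86% of MT- counts in siPRMT1 ethanol and 2.63%, 2.67% and 2.67% in siPRMT1 R5020, without overlap, as for 43.5% of all genes on this scale. The tRNAs MT-TI, MT-TL1, MT-TM, MT-TT and MT-TV were lower without overlap there too, and MT-CO2 and MT-ND5 were higher. In siCT MT-ND5 was also higher with R5020 without overlap. The share of all genes that were higher is not given here. The interaction after TMM scaling called none of the 25 members (none with an unadjusted p under 0.05), where 0.0451% of all genes were called above 0 and 0.0338% below (0.0790% in all).

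Nuclear genes whose products act on mitochondrial RNA were examined as lists. Of 17 genes for mitochondrial transcription and DNA replication, 4 rose and none fell with siPRMT1 in ethanol, and 2 rose and none fell in R5020. TFAM, which packages the mitochondrial genome and starts its transcription, rose 1.65-fold in ethanol (0.72 ± 0.19, edgeR adjusted p = 0.0131), and TFB1M, an rRNA methyltransferase of the mitochondrial ribosome, rose 2.07-fold and 1.82-fold (edgeR adjusted p = 0.00709 and 0.0222). Of 29 genes for RNA processing and stability, 6 rose and 1 fell in ethanol and 4 rose and 1 fell in R5020. LRPPRC, an RNA-binding protein that stabilises mitochondrial mRNAs, rose 2.19-fold in ethanol (1.13 ± 0.18, edgeR adjusted p = 0.00068) and 2.15-fold in R5020 (1.10 ± 0.18, edgeR adjusted p = 0.00104). The gene that fell was FASTKD5, known to act in precursor processing at mRNA ends that no tRNA borders, with log2 fold changes of -0.49 ± 0.13 in ethanol and -0.43 ± 0.13 in R5020 (edgeR adjusted p = 0.0117 and 0.0258). The medians of this list were 0.20 and 0.23, beside -0.07 and -0.03 for all genes tested. Without the pair the counts were 5 up and 1 down of 17 in ethanol and 3 and 1 in R5020 for the first list, and 9 and 3 of 29, then 8 and 2, for the second. With all libraries 13.6% of all genes were called higher and 19.2% lower in ethanol, and 11.5% and 14.2% in R5020. Without the pair these shares were 20.2% and 24.3%, then 19.3% and 19.6%.

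Of 76 mitochondrial ribosomal protein genes tested, 13 rose and 1 fell with siPRMT1 in ethanol and 9 rose and 1 fell in R5020. Without the pair the counts were 16 and 7, then 22 and 6, where 20.2% of all genes were called higher and 24.3% lower in ethanol, and 19.3% and 19.6% in R5020. MRPS28 rose 1.75-fold and 1.64-fold (edgeR adjusted p = 0.00194 and 0.00466). Of 14 translation factor genes 4 rose and 1 fell in ethanol and 3 rose in R5020, with GUF1, a ribosome-bound GTPase, at 1.73-fold and 1.65-fold (edgeR adjusted p = 0.000741 and 0.00168). With all libraries 13.6% and 11.5% of all genes were called higher and 19.2% and 14.2% lower in the 2 comparisons.

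With R5020, none of the 29 processing genes was called and 1 of the 76 ribosomal protein genes rose in siCT, where 7.59% of all genes rose and 5.43% fell. In siPRMT1 1 of the 29 fell and none of the 76 was called, where 9.30% of all genes rose and 6.08% fell. Without the pair 5 of the 76 rose in siCT and none of the 29 was called, where 10.9% of all genes rose and 8.95% fell, and in siPRMT1 11 of the 76 rose and 1 of the 29 moved each way, where 15.8% and 13.3% of all genes did. Among 9 regulators of mitochondrial biogenesis 3 rose and 1 fell in each siRNA group, and without the pair 3 rose and 1 fell in siCT and 4 rose and 2 fell in siPRMT1, beside the same shares of all genes. PPARGC1A, the coactivator that drives mitochondrial gene programmes, fell 3.42-fold in siCT (-1.77 ± 0.26 on the log2 scale) and 5.90-fold in siPRMT1 (-2.56 ± 0.24; edgeR adjusted p = 0.000323 and 6.49e-06), and ESRRA, a nuclear receptor it binds, rose 2.11-fold and 1.66-fold (edgeR adjusted p = 0.00229 and 0.0217). PPARGC1B, a relative of PPARGC1A, rose 1.69-fold with R5020 in siCT (edgeR adjusted p = 0.00257). With siPRMT1 in ethanol PPARGC1A rose 2.29-fold and PPARGC1B 2.05-fold (edgeR adjusted p = 0.00175 and 0.0003). With siPRMT1 in R5020 PPARGC1B was the only regulator of the 9 called (1.51-fold higher, edgeR adjusted p = 0.0083), and PPARGC1A was not called.

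In the authors' deposited table, 8 of 27 members with an adjusted p were lower and none higher with siPRMT1 in ethanol, beside 11.0% and 8.85% of all genes there, and 6 of 26 were lower and none higher in R5020, beside 15.3% each way. Its log2 fold changes in ethanol were -1.34 for MT-ATP8, -1.16 for MT-ATP6, -1.10 for MT-ND3 and -0.98 for MT-CYB. For R5020 in siPRMT1 cells the authors' deposited table called 14 of 26 members higher and 1 lower, beside 18.6% and 15.0% of all genes, and for R5020 in siCT cells it called none of 27, beside 4.54% higher and 2.07% lower.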

How the data were processed

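TRIzol RNA and Lexogen SENSE mRNA libraries of 12 samples, 3 biological replicates per group, were sequenced, per the labels' protocols. The authors deposited raw counts per gene symbol for each sample, and a table of their own comparisons with log2 fold changes, p-values and adjusted p-values. Bowtie2 2.3.2.2, HTSeq 0.9.1, DESeq2 and the build hg19 are named, per the submitters' processing notes. The strand setting, annotation release and handling of reads shared by genes were not stated, which bears on overlapping members, nuclear copies and MT-ND6.

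Total counts were 26783525 to 34120937 per library. Counts were fitted with edgeR 4.0.16 in R 4.3.3: filterByExpr (minimum count 10, 17727 genes kept), TMM scaling, 1 mean per group over all 12 libraries and the quasi-likelihood test, with p-values adjusted by Benjamini-Hochberg across all of these genes and calls at an adjusted p under 0.05. The SE is the absolute log2 fold change divided by the square root of F. In the fit relative to the MT- counts, the library size was the summed MT- counts, whose spread enters the other genes but largely cancels for members. Shares of MT- counts were described, not tested. Both fits were run on simulated data. Noise in the MT- total shifted all genes of the relative fit alike there, which follows from dividing by that total. The simulation gave all genes 1 dispersion and held no library with a raised MT- share, so it says nothing about the pair. No replicates of a group agreed within sampling noise.

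Members, lists and tests were chosen with earlier results of these data known. Named were all protein-coding and rRNA members, tRNAs that passed the filter, all called members, the 5 nuclear copies with most counts and, per other list and comparison, called genes among the 3 with the smallest adjusted p. DESeq2 1.42.0, other scalings and left-out libraries were alternatives. Sequences and lengths come from GENCODE 29 (GRCh38), matched by name, and no coordinates are given.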

Additional observations from a re-analysis of the deposited data

How the results depend on the processing

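Of the 25 members, 4 were called lower with siPRMT1 in ethanol and 2 in R5020 after TMM scaling. In ethanol the number was 9 without the filter on low counts (11.6% of all genes were called lower), 8 with DESeq2 (20.1%), 1 with only the groups compared (2040 of 17029 genes) and 7 without the pair (24.3%), which also gave 4 called higher (20.2%), beside 19.2% lower in the fit with all libraries. In R5020 it was 5 without the filter (8.91%), 4 with DESeq2 (15.8%), 4 with only the groups compared (18.9%), 4 with library totals alone (9.51%) and, leaving out the pair, 6 (19.6%) and 8 higher (19.3%), beside 14.2%. Library totals alone put the median of all genes at 0.11 for siPRMT1 in ethanol and at -0.18 for R5020 in siPRMT1 cells, against -0.07 and 0.00 with TMM. For R5020 in siPRMT1 cells, only the groups compared gave 13 higher and 1 lower (23.9% and 22.7% of all genes), and leaving out the pair gave 9 higher (15.8%). Relative to the MT- total, 4 and 3 members were called lower. Leaving out the pair gave 8 lower and 5 higher in ethanol (25.6% and 13.3% of all genes), 11 lower and 5 higher in R5020 (33.0% and 6.23%), and 1 lower for R5020 in siPRMT1 cells (28.5%). Dividing by the protein-coding MT- counts gave 1 higher and 3 lower in ethanol (1.21% and 0.897%): MT-RNR2 was gained and the call of MT-ND3 ended (-0.57, edgeR adjusted p = 0.0543).

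Leaving out 1 library at a time gave 0 to 7 lower and 0 to 1 higher in ethanol, 0 to 7 lower in R5020, and 0 to 1 higher for R5020 in siCT cells, after TMM scaling. Relative to the MT- total it gave 0 to 4 lower and 0 to 2 higher in ethanol and 0 to 8 lower in R5020. No member called in the TMM or relative fit with all 12 libraries changed sign in any of these settings.

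With the replicate number as a block, the number lower in ethanol was 1 after TMM scaling (16.1% of all genes) and 1 relative to the MT- total (0.350%), and in R5020 it was 0 relative to the MT- total (0.220%). Whether the numbers pair the samples could not be told. Of 18 same-numbered pairs of libraries, 3 had a correlation of deviations over 0.1, and r ran from -0.667 to 0.290. The deviations within a group sum to 0, and the libraries that stood apart, siCT ethanol replicate 3 and siCT R5020 replicate 1, carry different numbers (r = 0.808 between them). Members with few counts, the tRNAs and MT-ND6 above all, are limited by depth.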
